A study of Mus musculus with 6 samples.

Results

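Cytosolic ribosomal proteins were described here as the protein-coding rows of the deposited expression table whose symbols begin with Rpl or Rps and a digit, or are Rpsa, Rplp0, Rplp1 or Rplp2, leaving out the Rps6k kinases and names with -ps. This gave 85 genes of the 49452 rows, chosen by name and not by their values. The rule by name also takes in Rps19bp1, which encodes a binding partner of Rps19 and is not itself a ribosomal protein. RNA-seq had been done on epidermis separated from C57BL/6 mouse embryos at E19.5, with 3 control libraries (261, 262 and 264) and 3 libraries whose genotype label reads Rictor -/- (263, 265 and 266). Strain, tissue and age were the same in both groups, and the labels name no Cre driver, litter or sex. Nor do they state whether the libraries are from different animals, so p-values measure the spread between these libraries, which may be technical. Expression was deposited as FPKM, fragment numbers scaled by transcript length and by the library's total, a unit that divides by length and so allows levels to be compared between genes.

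Rictor encodes the subunit that defines mTOR complex 2, a kinase complex that acts on AKT and related kinases. The gene itself read 5.63, 6.02 and 4.37 FPKM in controls 261, 262 and 264 and 6.83, 7.04 and 6.86 FPKM in 263, 265 and 266, which is not lower in the libraries labelled knockout (log2 difference 0.33 ± 0.11 (SE), limma adjusted p = 0.0694). A value over the whole gene cannot show a deletion of some of its exons, so it neither checks the label nor goes against it, and the groups are called by their labels throughout.

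Ribosomal proteins form the protein part of the ribosome, with one set in the large subunit, another in the small subunit and a flexible stalk of Rplp0, Rplp1 and Rplp2 that recruits elongation factors. Their mRNAs are short and abundant, and they are classic TOP mRNAs, which start with a C followed by a run of C and T (a terminal oligopyrimidine tract). Translation of TOP mRNAs responds to mTOR complex 1 through the RNA-binding protein Larp1, while Rictor belongs to the other mTOR complex. In skin, mouse mutations in Rps19 and Rps20 are known to darken the feet and tail through p53 in keratinocytes, and a mutation in Rpl27a also darkens the feet.

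RefSeq promoter windows (GRCm38.p6, 250 bases before to 50 after the most upstream annotated start of each gene) were found for 65 of the 85 genes. The 9 stretches that follow run from 30 bases before the annotated start to 20 after it, 5′ to 3′ on the coding strand, and they show Rps6 as the textbook substrate of S6 kinase, an original gene and its retrogene copy (Rps27 and Rps27rt), 3 further genes that fell, and the 3 tested genes that were not lower in mean. Capitals mark a tract of C followed by at least 4 more C or T that begins within 10 bases of the annotated start, and a stretch with no capitals holds no such tract there.
Rps6, chr4:86857348-86857397 on the minus strand: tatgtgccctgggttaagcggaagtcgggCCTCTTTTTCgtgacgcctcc
Rps27, chr3:90213629-90213678 on the minus strand: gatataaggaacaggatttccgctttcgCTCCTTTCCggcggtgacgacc
Rps27rt, chr9:114982720-114982769 on the minus strand: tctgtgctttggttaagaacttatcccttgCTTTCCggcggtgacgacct
Rps21, chr2:180257349-180257398 on the plus strand: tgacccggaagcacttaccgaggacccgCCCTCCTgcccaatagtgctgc
Rpl10a, chr17:28328441-28328490 on the plus strand: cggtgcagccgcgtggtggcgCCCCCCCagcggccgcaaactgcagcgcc
Rps28, chr17:33824543-33824592 on the minus strand: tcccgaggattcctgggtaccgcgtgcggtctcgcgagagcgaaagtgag
Rpl36al, chr12:69184048-69184097 on the minus strand: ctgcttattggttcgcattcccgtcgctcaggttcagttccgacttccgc
Rpl7l1, chr17:46782637-46782686 on the minus strand: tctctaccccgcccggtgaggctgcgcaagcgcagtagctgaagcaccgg
Rps19bp1, chr15:80264287-80264336 on the minus strand: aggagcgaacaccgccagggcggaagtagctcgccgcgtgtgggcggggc

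The tract runs over 10 bases in Rps6, over 9 in Rps27 and over 6 in Rps27rt, and is absent at this place in Rps28, Rpl36al, Rpl7l1 and Rps19bp1. It was present in 38 of the 65 windows (58.5%), against 30.8% of all 27025 promoters in the table. A stricter tract of C and at least 7 more C or T was present in 21 windows (32.3%), against 8.04% of all promoters. An annotated start can lie some bases away from the used one, so a missing tract says only that these letters are not in the window.

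Of 4 further motifs searched on both strands of the 300-base windows, none of which contains another, CCGGAA, the core bound by ETS factors, was in 33 of 65 windows (50.8%), against 15.2% of all promoters and 28.8% of the promoters of tested genes. AAGATGG, the core bound by YY1, was in 10 windows (15.4%), against 6.46% of all promoters and 7.27% of those of tested genes. TATAAA, the TATA box, was in 7 windows (10.8%), fewer than the 14.2% of all promoters but more than the 7.81% of those of tested genes. GGGCGG, the GC box, was in 39 (60%), against 35.9% of all promoters and 64.7% of those of tested genes. Rps27 and Rps27rt share a run of 38 identical bases that begins 1 base after the annotated start of Rps27 and at that of Rps27rt. The bases before the start differ between the pair, as the printed stretches show.

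Among the 6 libraries, control 264 stood apart. Mitochondrial genes took 1.84% of its summed FPKM, against 3.86% to 4.57% in the other 5 libraries, and its values leaned towards short genes: over 13325 tested genes other than the members, the Spearman correlation of a gene's deviation in a library with its transcript length was -0.33 in control 264, 0.02 and 0.01 in controls 261 and 262, and 0.14, 0.20 and 0.21 in libraries 263, 265 and 266. Epidermal keratinocyte markers summed to 33067–33974 FPKM in the controls and 35343–36633 FPKM in the libraries labelled knockout. Summed markers of T cells (8.39–13.4 against 3.51–4.91 FPKM), myeloid cells (30.7–38.6 against 20.96–22.5) and melanocytes (336–416 against 252–283) were lower in all 3 libraries labelled knockout, those of fibroblasts (114–142 against 124–158), erythroid cells (291–484 against 150.2–335) and muscle (22.3–41.1 against 19.2–55.3) overlapped as sums, the 4 endothelial markers summed to less than 1 FPKM in every library, and 0 of the marker genes were at 0 in all libraries. Gene by gene, the 6 epidermal markers went both ways, with 4 higher and 2 lower in mean and a median difference of 0.05. Of these 6, 2 rose, and of 4 tested fibroblast markers 2 rose, with a median of 0.71, against 7.91% of all tested genes. Of the tested T cell, myeloid and melanocyte markers, 2 of 3, 3 of 3 and 3 of 4 fell, against 15.6% of all tested genes. All 5 erythroid markers were lower in mean, with a median of -0.77. Of these, 3 were at an unadjusted p under 0.05, against 24.9% of all tested genes, though 0 passed by limma. In bulk RNA, a different mix of cells and a different amount of RNA per cell cannot be told apart, and the part of these other cells in the ribosomal protein values was not tested.

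Ribosomal protein mRNAs took a smaller share of the measured transcript pool in the libraries labelled knockout. Their summed FPKM was 20.5%, 19.96% and 22.7% of all FPKM in controls 261, 262 and 264 and 17.6%, 18.5% and 17.8% in libraries 263, 265 and 266. All 3 controls were above all 3 libraries labelled knockout, with control 264 the highest, and the means were 21.1% ± 1.47 and 18.0% ± 0.46 (SD, n = 3 each), a difference of -3.08 percentage points (two-sided exact permutation p = 0.10, the smallest that 3 against 3 libraries allow). Among the 85 genes, 76 had a mean of at least 500 FPKM, a bound chosen after their values were seen, and are called the abundant ribosomal proteins here. These were 42 large-subunit proteins at 542 to 3917 FPKM (median 1246), the 3 stalk proteins at 1858 to 3736 FPKM and 31 small-subunit proteins at 1073 to 3728 FPKM (median 1717). The most abundant mRNAs were those of Rpl13a (mean 3917 FPKM), a large-subunit protein also known for silencing inflammatory mRNAs, the stalk protein Rplp1 (3736), and the small-subunit proteins Rps12 (3728) and Rps27 (3421).

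**Figure D1:**
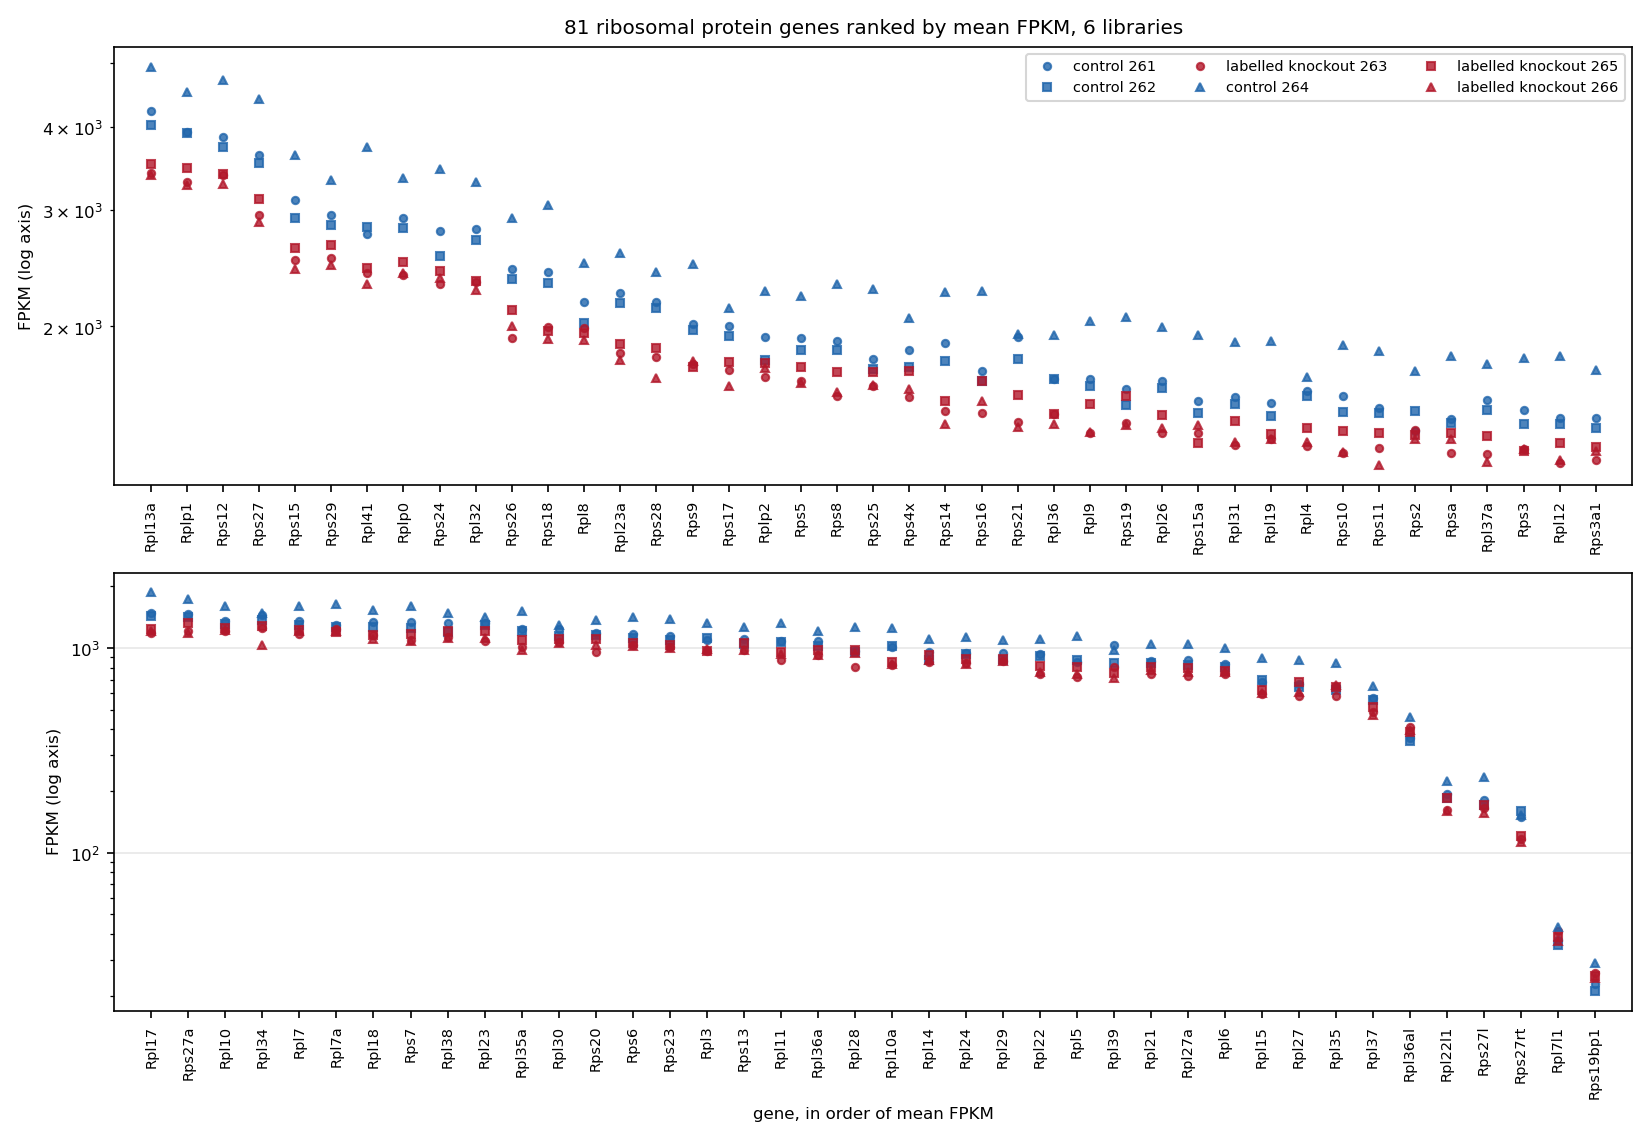
FPKM (log axis) of 81 of the 82 tested ribosomal protein genes in each of the 6 libraries, in order of mean FPKM over 2 rows, with controls in blue and libraries labelled knockout in red. The abundant genes span a 7.23-fold range of mean FPKM, and control 264 (blue triangles) is the highest library for 75 of the 76.

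The remaining 9 genes were below that bound: Rpl36al (mean 395 FPKM), Rpl22l1 (185), Rps27l (179.5), Rps27rt (135), Rpl7l1 (38.9), Rps19bp1 (24.6), and Rpl39l, Rpl3l and Rpl10l. The last 3 are paralogs known from testis or muscle. Rpl39l stood at 0.108 to 0.531 FPKM and Rpl3l at no more than 0.0681 FPKM, while Rpl10l was listed at 0 in every library, so these 3 were not tested. Most of the untested and low genes are paralogs, and 278 rows of the table are annotated ribosomal protein pseudogenes, whose sum was 1.24% to 1.33% of the members' sum. The sources used here do not describe how reads were shared among such near-identical copies, so the values of paralogs, and of Rps27rt above all, are uncertain.

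Nearly every ribosomal protein mRNA was somewhat lower in mean in the libraries labelled knockout. Of the 82 tested genes 79 were lower in mean and 3 were higher, while 7939 of all 13500 tested genes were lower and 5561 higher. All 76 abundant genes were lower, at 75.5% to 90.3% of the control mean (median 82.9%). The bound that defines them was set after their values were seen, and the 3 higher genes lie below it. The log2 differences of the abundant genes ran from -0.40 to -0.14 with a median of -0.27 and an SD over genes of 0.06. The median over all 82 members was -0.26, against -0.06 over all 13500 tested genes. The direction held for all 76 abundant genes under every scaling to other genes tried with all 6 libraries except the adjustment for length over all exons, where 72 were lower and Rpl14, Rpl29, Rpl35 and Rps2 were not. With that adjustment and without control 264, 66 were lower and 10 were higher (Rpl14, Rpl27, Rpl28, Rpl29, Rpl35, Rpl38, Rpl7a, Rpl8, Rps16 and Rps2), and with median scaling without control 264, 75 were lower and Rpl35 was not. These genes are named because their direction turned.

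Few of these differences passed the test gene by gene. With limma and Benjamini-Hochberg adjustment over all tested genes, 7 members fell (8.54% of 82), against 15.6% of all tested genes, and 0 members rose, against 7.91% of all tested genes, also 0 at an unadjusted p under 0.05 and 0 with non-overlapping groups, against 16.6% of all tested genes. At an unadjusted p under 0.05, 50 of the 82 members were lower, against 24.9% of all tested genes (13.4% were higher). The 2 groups did not overlap, with every library labelled knockout below every control, in 69 of the 82 members (84.1%), against 29.2% of all tested genes. Among the abundant genes the groups overlapped in 9: Rpl14, Rpl27, Rpl28, Rpl29, Rpl35, Rpl38, Rps13, Rps19 and Rps2, named here because their values overlapped.

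**Figure D2:**
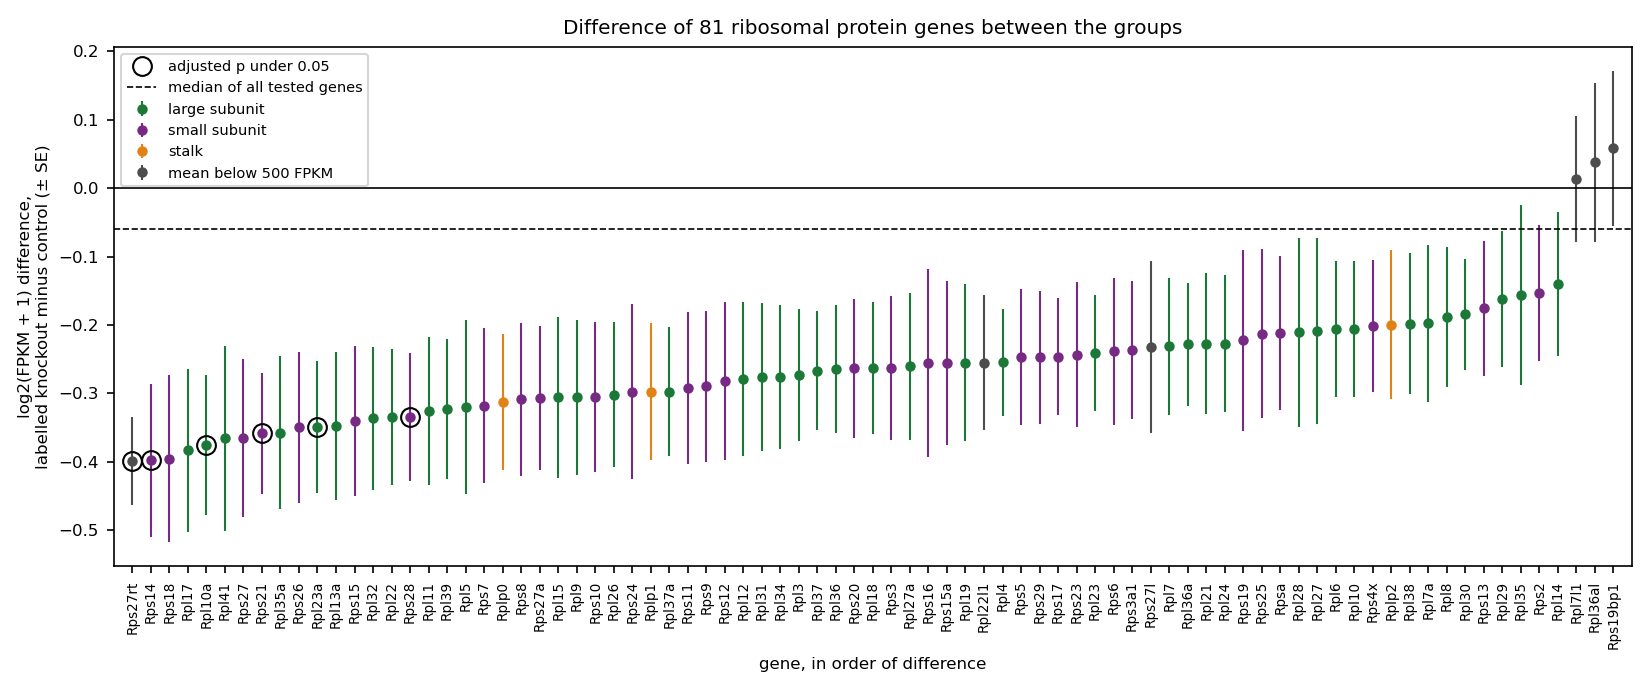
Difference in log2(FPKM + 1), labelled knockout minus control, of 81 of the 82 tested genes in order of size, with bars of 1 SE from limma on 3 against 3 libraries. The 6 circled genes passed an adjusted p of 0.05; 78 of the points drawn lie below 0, and the dashed line marks the median of all tested genes at -0.06.

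The members moved together from library to library as well. Control 264 was the highest of the 6 libraries in 75 of the 76 abundant genes, the exception being Rpl39, a small protein of the exit tunnel, which was highest in control 261. Control 261 was above control 262 in 70 of the 76. The lowest library was 263 for 37 genes, 266 for 34 and 265 for 5. Expressed as deviation from each gene's mean on the log2 scale, the abundant genes had medians of 0.07, 0.03 and 0.33 in controls 261, 262 and 264 and of -0.16, -0.08 and -0.16 in libraries 263, 265 and 266. Control 264 lay further from the other controls than those lay from the libraries labelled knockout. The relative levels of the abundant genes were close to identical in all libraries, with a Pearson correlation of log2 levels across the 76 genes of 0.988 to 0.997 for every pair of libraries, a description only, since genes are not independent replicates.

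**Figure D3:**
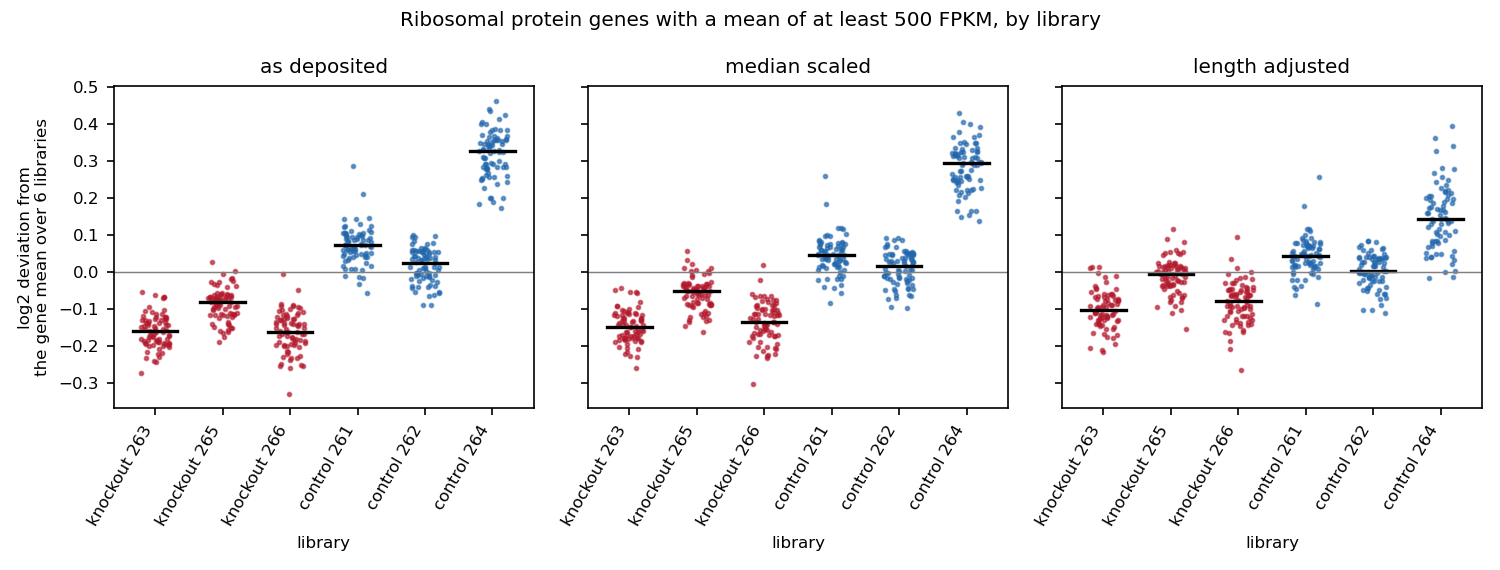
Log2 deviation of each abundant ribosomal protein gene (points, 76 genes) from its mean over the 6 libraries, by library, as deposited, after median scaling and after the length adjustment; black bars are medians. Control 264 has a median of 0.33 as deposited and 0.14 after the length adjustment, and the medians of the 3 libraries labelled knockout lie below 0 in all 3 panels.

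Of the 7 genes that fell, the 6 described here encode 4 small-subunit proteins, counting the retrogene Rps27rt with them, and 2 large-subunit proteins. Rps27rt (ENSMUSG00000050621, chr9:114982366-114982739, GRCm38) is an intronless copy of Rps27 and was measured at 149, 159 and 153 FPKM in controls 261, 262 and 264 and 116, 121 and 112 FPKM in 263, 265 and 266. The controls lay close together and clear of the others, and the fall was -0.40 ± 0.06 (SE) on the log2 scale (limma adjusted p = 0.008), at 75.7% of the control mean. It was the only one of the 7 to pass under each single alternative and each leave-one-out fit of the deposited scale, while it was not called on the scale of the median ribosomal protein described further on (adjusted p = 0.316).

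Rps14 (ENSMUSG00000024608, chr18:60747098-60778546), the small-subunit protein whose loss underlies the anaemia of a myelodysplastic syndrome, was at 1885, 1773 and 2252 FPKM in the controls and 1492, 1546 and 1426 FPKM in the libraries labelled knockout, or 1970.0 ± 251 against 1488 ± 59.7 FPKM (SD, n = 3 each). Its difference was -0.40 ± 0.11 (SE), 95% interval -0.66 to -0.13, with an adjusted p of 0.0438 by limma. Rps21 (ENSMUSG00000039001, chr2:180257377-180258445), another small-subunit protein, was at 1930.2, 1785 and 1951 FPKM in the controls and 1433, 1578 and 1412 FPKM in the libraries labelled knockout. Control 264 was not set apart in Rps21, where it nearly equalled control 261, and the difference was -0.36 ± 0.09 (SE) (limma adjusted p = 0.0303). Rps28 (ENSMUSG00000067288, chr17:33819027-33824562), which lies near the exit of the mRNA from the small subunit, was at 2180.2, 2129.6 and 2417 FPKM in the controls and 1802, 1856 and 1673 FPKM in the libraries labelled knockout, a fall of 0.33 on the log2 scale (limma adjusted p = 0.0431).

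In the large subunit, Rpl10a (ENSMUSG00000037805, chr17:28328471-28331033), which forms the L1 stalk beside the exit site, was at 1014, 1023 and 1252 FPKM in the controls and 829, 857 and 837 FPKM in the libraries labelled knockout. The libraries labelled knockout agreed closely, while control 264 was well above its fellows, and the difference was -0.38 ± 0.10 (SE) (limma adjusted p = 0.0409). Rpl23a (ENSMUSG00000058546, chr11:78180932-78183584), which sits at the exit of the peptide tunnel where targeting factors dock, was at 2249, 2174 and 2579 FPKM in the controls and 1826, 1879 and 1777 FPKM in the libraries labelled knockout, with a difference of -0.35 ± 0.10 (SE) (limma adjusted p = 0.0428). The groups did not overlap in any of these 6.

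Other genes with differences as large did not pass, and control 264 was the highest library in each of those named next. Rps18 had a difference of -0.40 ± 0.12 (SE) (limma adjusted p = 0.0582), with 2414, 2326 and 3052 FPKM in the controls and 1997, 1970.3 and 1913 FPKM in the libraries labelled knockout. Rpl17, on chromosome 18 like Rps14, differed by -0.38 ± 0.12 (SE) (limma adjusted p = 0.059), and Rpl13a, the most abundant member, by -0.35 ± 0.11 (SE) (0.0593). At the other end, Rpl14 was at 957, 874 and 1109 FPKM in the controls and 859, 925 and 873 FPKM in the libraries labelled knockout, so that 265 lay above control 262, and its difference was -0.14 ± 0.11 (SE), 95% interval -0.39 to 0.11.

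Among the stalk proteins, Rplp0, the scaffold, was at 2917, 2816 and 3353 FPKM in the controls and 2388, 2505 and 2405 FPKM in the libraries labelled knockout (-0.31 ± 0.10 (SE) on the log2 scale, limma adjusted p = 0.064). Rplp1 differed by -0.30 ± 0.10 (SE) (0.0738) and its partner Rplp2 by -0.20 ± 0.11 (SE) (0.224). None of the 3 stalk genes passed the test with all 6 libraries, and in each the groups did not overlap.

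Rps6, the substrate of the S6 kinases, was at 1167, 1114 and 1417 FPKM in the controls and 1039.7, 1052 and 1025 FPKM in the libraries labelled knockout. The 3 libraries labelled knockout lay within a narrow band below the controls, but the difference of -0.24 ± 0.11 (SE) did not pass (limma adjusted p = 0.152). Rpl5 and Rpl11, which together with a ribosomal RNA bind Mdm2 and so can stabilise p53, were at 79.5% and 79.4% of the control mean, with differences of -0.32 ± 0.13 (SE) and -0.33 ± 0.11 (SE) (limma adjusted p = 0.114 and 0.0707). Neither of the pair passed.

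Of the genes whose mouse mutants have dark skin, Rps19 was at 1609, 1522 and 2069 FPKM in the controls and 1428, 1571 and 1421 FPKM in the libraries labelled knockout, so that 265 lay above control 262 (difference -0.22 ± 0.13 (SE), limma adjusted p = 0.26). Rps20 was at 1189, 1160.3 and 1374 FPKM in the controls and 961, 1103 and 1033 FPKM in the libraries labelled knockout, without overlap (-0.26 ± 0.10 (SE), 0.104), and Rpl27a was at 83.1% of the control mean (-0.26 ± 0.11 (SE), 0.123). None of the 3 passed. Rpl38 and Rpl24, known from the mouse mutants Tail short and Belly spot and tail, differed by -0.20 ± 0.10 (SE) and -0.23 ± 0.10 (SE) (limma adjusted p = 0.205 and 0.146). Rpsa, which also serves as a laminin receptor at the basement membrane, differed by -0.21 ± 0.11 (SE) (0.213), and Rps3, which also has a role in DNA repair, by -0.26 ± 0.11 (SE) (0.116). None of these 4 passed either.

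The large and small subunits had close median differences, which were not tested against each other. The median was -0.27 over the 42 large-subunit genes, of which 3 fell, -0.26 over the 31 small-subunit genes, of which 3 fell, and -0.30 over the stalk, and both counts are below the 15.6% of all tested genes. The ratio of the large-subunit median FPKM to the small-subunit median FPKM was 0.730, 0.714 and 0.719 in controls 261, 262 and 264 and 0.751, 0.744 and 0.760 in libraries 263, 265 and 266, a description with no test. Across the 76 abundant genes, the difference correlated with the mean level at a Spearman rho of -0.37 and with transcript length at 0.28. These are descriptions over genes that share the same 6 libraries. Abundant genes with a start tract in the RefSeq window had a median difference of -0.28 (32 genes), against -0.26 for those with a window but no tract (24 genes).

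Scaling each library to the median of the tested genes left the direction in place and removed most calls. After median scaling the median was -0.22 over members and -0.02 over all tested genes, the groups did not overlap in 64 of 82 members (78.0%), against 24.9% of all tested genes, and 2 genes fell, Rps21 (limma adjusted p = 0.0403) and Rps27rt (0.012), or 2.44% of the members against 12.7% of all tested genes. By limma 0 rose, against 10.3% of all tested genes, and also 0 at an unadjusted p under 0.05. Rpl10a, Rps14, Rpl23a and Rps28 then had adjusted p-values of 0.053 to 0.0567, just above the threshold.

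A trend with transcript length moved with the groups and was strongest in control 264, and the members are short, with a median transcript length of 704 bases for the abundant genes against 2106 for tested protein-coding genes. Tested coding genes under 1000 bases had a median difference of -0.12, those of 1000 to 2000 bases -0.11, those of 2000 to 4000 bases -0.04 and those over 4000 bases 0.05. The abundant ribosomal proteins were thus lower than the median of genes of their own length class. With a smooth of each library's deviations on exonic length removed, the members' median was -0.13 against 0.00 for all tested genes, and Rpl10a, Rps14 and Rps27rt remained called (3.66% of members, against 11.4% of all tested genes), while 0 rose by limma, against 12.3%, with 2 higher at an unadjusted p under 0.05. The medians by library were then 0.04, 0.00 and 0.14 for controls 261, 262 and 264 and -0.10, -0.01 and -0.08 for libraries 263, 265 and 266. On this scale library 265 lay beside control 262.

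Without control 264 the differences were smaller and more of them passed. The median over members was -0.18, against -0.05 over all tested genes, and 30 members fell (36.6%), against 16.8% of all tested genes, with the 7 among them. By limma 0 rose, against 11.2% of all tested genes, with 2 higher at an unadjusted p under 0.05. All 76 abundant genes were still lower in mean. Rpl13a (limma adjusted p = 0.0211), Rps18 (0.0163), Rplp0 (0.0256) and Rpl11 (0.0368) were among those that passed then, while Rps6 (0.0879), Rpl5 (0.071) and Rps19 (0.355) did not. With the length adjustment and without control 264 together, the median over members was -0.09, 4 members fell (Rpl10a, Rps14, Rps18 and Rps27rt), against 12.7% of all tested genes, and 2 rose (Rpl36al and Rps19bp1), against 14.8%.

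The 3 members that were not lower in mean were all below 500 FPKM. Rpl36al (ENSMUSG00000049751, chr12:69182731-69184083), a paralog of the X-linked Rpl36a, was at 362, 349.6 and 461 FPKM in the controls and 410.3, 389 and 396 FPKM in the libraries labelled knockout. Control 264 was the highest and the other controls the lowest, so the groups overlapped, and the difference was 0.04 ± 0.12 (SE), 95% interval -0.24 to 0.31. Rpl7l1 (ENSMUSG00000063888, chr17:46773907-46782672), a paralog of Rpl7, was at 37.4, 35.3 and 43.6 FPKM in the controls and 41.3, 38.6 and 37.1 FPKM in the libraries labelled knockout, a difference of 0.01 ± 0.09 (SE). Rps19bp1 was at 22.7, 21.1 and 28.8 FPKM in the controls and 25.8, 24.9 and 24.3 FPKM in the libraries labelled knockout, a difference of 0.06 ± 0.11 (SE). None of the 3 passed the test on the deposited scale.

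Set against their partners within each library, 4 of 5 paralogs stood at a larger percent of the partner in every library labelled knockout. The partners of these 4 were lower in mean (Rpl36a -0.23, Rpl7 -0.23, Rpl22 -0.33 and Rps27 -0.36 on the log2 scale). Rpl22l1 (-0.25) and Rps27l (-0.23) were lower in mean too, so a larger percent is not a rise of the paralog itself. Rpl36al was 33.4%, 34.2% and 38.0% of the Rpl36a level in the controls and 44.3%, 40.0% and 42.7% in the libraries labelled knockout. Rpl7l1 was 2.75%, 2.72% and 2.73% of Rpl7 in the controls and 3.52%, 3.15% and 3.06% in the others, so the 3 controls were nearly equal, control 264 included. Rpl22l1, whose product can stand in for Rpl22, was 20.8%, 20.4% and 20.3% of Rpl22 in the controls and 21.5%, 22.6% and 20.96% in the others. Rps27l, a p53-responsive copy of Rps27, was 4.96%, 4.82% and 5.30% of Rps27 in the controls and 5.59%, 5.50% and 5.42% in the others. For each of these 4 the two-sided exact permutation p was again 0.10, and 0.125 with Benjamini-Hochberg adjustment over the 5 pairs, so none passes. Rps27rt was 4.10%, 4.51% and 3.47% of Rps27 in the controls and 3.93%, 3.88% and 3.91% in the others, with overlap (exact permutation p = 0.70).

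**Figure D4:**
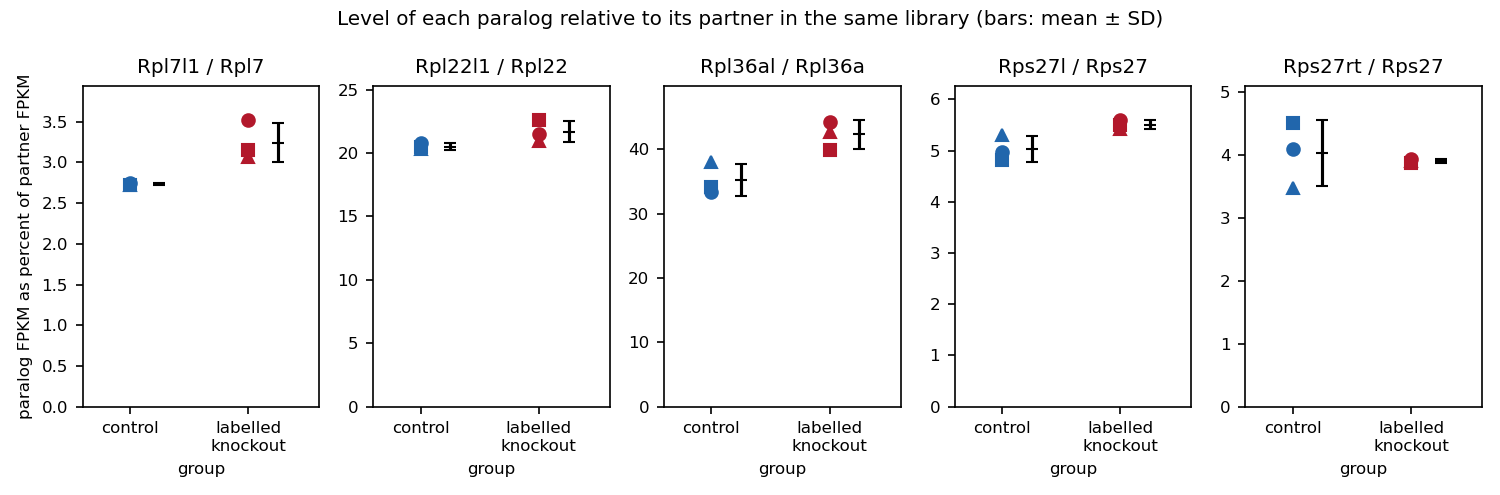
FPKM of each of 5 paralogs as a percent of its partner's FPKM in the same library, for 3 controls (blue) and 3 libraries labelled knockout (red); marker shapes are libraries as in the plot of levels, and bars are mean ± SD. In the first 4 panels all red points lie above all blue ones, and in Rps27rt over Rps27 they overlap.

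When each library was instead scaled to the median of the abundant ribosomal proteins, a scale added after seeing the data, the 3 members that were not lower in mean lay above the median member. That position follows from how the 3 were picked, since the abundant genes were all lower on the deposited scale. The p-values below are thus no separate support for it. Over all tested genes the median difference on this scale was 0.17. Rpl36al rose by 0.30 ± 0.06 (SE) relative to the median member (limma adjusted p = 0.0159), Rps19bp1 by 0.31 ± 0.08 (SE) (0.0291) and Rpl7l1 by 0.27 ± 0.08 (SE) (0.0447). These were 3 of 82 members (3.66%), a smaller share than the 20.6% of all tested genes on that scale. The paralogs Rpl22l1 and Rps27l did not depart from it detectably (0.00 ± 0.07 (SE) and 0.02 ± 0.07 (SE), limma adjusted p = 0.982 and 0.801). Rps14 fell below the median member by 0.14 (limma adjusted p = 0.0491), 1 of 82 members against 4.68% of all tested genes. Without control 264 the same 3 genes rose on this scale, against 23% of all tested genes, and Rps27rt fell in place of Rps14, against 7.72%.

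Fau and Rack1, which also encode components of the cytosolic ribosome, were lower to a like extent. Fau, a fusion gene for Rps30, was at 1333, 1269.6 and 1599 FPKM in the controls and 1081, 1178 and 1051 FPKM in the libraries labelled knockout (difference -0.34 ± 0.11 (SE), limma adjusted p = 0.0699). Rack1, the scaffold on the small-subunit head, was at 1412, 1337 and 1709 FPKM in the controls and 1213, 1171 and 1148 FPKM in the libraries labelled knockout (-0.33 ± 0.11 (SE), 0.0732). The groups did not overlap in either gene. Neither passed by limma with all 6 libraries, and both were under an unadjusted p of 0.05 and passed without control 264.

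Of 17 other mRNAs known to carry a TOP start, 3 fell and 1 rose, shares close to the 15.6% and 7.91% of all tested genes, with a median difference of -0.16. The elongation factor Eef1a1 fell, from 6153, 6348 and 7572 FPKM in the controls to 5092, 5004 and 5023 FPKM in the others (-0.40 ± 0.11 (SE), limma adjusted p = 0.0452), as did the initiation factor subunits Eif3f (-0.30 ± 0.07 (SE), 0.0315) and Eif3h (-0.31 ± 0.09 (SE), 0.0492). Vim, an intermediate filament gene of mesenchymal cells whose mRNA is also listed as TOP, rose by 0.44 ± 0.06 (SE) (0.00537). Of 4 tested fibroblast markers 2 rose, against 7.91% of all tested genes, while their summed FPKM overlapped between the groups. A link between these markers and Vim was not tested. Of the 3 TOP mRNAs that fell, 1 passed after median scaling (Eif3f). Without control 264, 6 of the 17 fell, against 16.8% of all tested genes. Among the 78 mitochondrial ribosomal proteins, which serve a separate ribosome, 5 fell, a smaller share than the 15.6% of all tested genes, 0 rose by limma, against 7.91% (0 at an unadjusted p under 0.05), and the median was -0.10. Mrpl24 (-0.43 ± 0.08 (SE), 0.0149) and Mrpl34 (-0.31 ± 0.07 (SE), 0.0254) had the smallest p-values. After the length adjustment the mitochondrial list had a median of 0.01, with 3 lower calls, against 11.4% of all tested genes, and 3 higher, against 12.3%.

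Genes that build ribosomes went the other way from the genes that encode their proteins. Of 50 tested biogenesis factors, 25 rose, against 7.91% of all tested genes, 0 fell by limma (2 lower at an unadjusted p under 0.05), and the median difference was 0.36. Ddx21, a nucleolar helicase, was at 28.9, 27.2 and 29.5 FPKM in the controls and 46.7, 46.5 and 44.0 FPKM in the libraries labelled knockout (0.66 ± 0.06 (SE), limma adjusted p = 0.00221). Rrp1b, a pre-ribosome processing factor, was at 7.77, 7.55 and 7.03 FPKM in the controls and 12.1, 12.3 and 12.3 FPKM in the libraries labelled knockout (0.65 ± 0.06 (SE), 0.00225). The controls and the other libraries were far apart in both, with control 264 close to its fellows. Nop2, an rRNA methyltransferase, Ncl (nucleolin) and Polr1a, the large subunit of RNA polymerase I, named after their values were seen, rose by 0.67, 0.52 and 0.48. Other polymerase I genes of the list were split. Polr1b rose by 0.38, and Rrn3 was higher by 0.19 without overlap of the groups (limma adjusted p = 0.0729). Polr1c (-0.25), Polr1d (-0.18), Taf1b (-0.29) and Taf1c (-0.13) were lower without overlap, and none of them passed by limma. Only these 4 of the 50 biogenesis factors were lower without overlap, against 29.2% of all tested genes. Higher without overlap were 33 of the 50, against 16.6% of all tested genes. The count of biogenesis factors that rose was 31 after median scaling, 34 after the length adjustment and 35 without control 264. The shares of all tested genes were 10.3%, 12.3% and 11.2%.

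Of 37 translation factors, 10 rose, against 7.91% of all tested genes, and 1 fell, against 15.6%, with a median difference of 0.11. Eif1a, which helps to scan for the start codon, rose by 0.46 ± 0.07 (SE) (limma adjusted p = 0.00801) and Eif3c by 0.32 ± 0.06 (SE) (0.0158). The cap-binding protein Eif4e (0.41), its scaffold Eif4g1 (0.34) and Eif6, which keeps the subunits apart (0.30), also rose, while Eif3k fell by 0.33, these 4 being named after their values were seen. Subunits of the same factor, Eif3, were thus among both the risers and the genes that fell.

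Of 27 S6 kinase, mTOR and Myc regulators, 4 rose, against 7.91% of all tested genes, and 3 fell, against 15.6%. The kinase Rps6ka4 rose by 1.01 ± 0.10 (SE) (limma adjusted p = 0.0027), from 22.9, 18.8 and 23.4 FPKM in the controls to 46.6, 47.0 and 40.5 FPKM. Larp4, an mRNA-stabilising relative of Larp1, rose by 0.43 ± 0.07 (SE) (0.00696), as did Myc, an activator of ribosome genes (0.67, 0.00757), and the S6 kinase gene Rps6kb1 (0.23, 0.0277). Mlst8, Mycl and Mxi1 fell, and Larp1 itself differed by 0.40 ± 0.12 (SE) without passing (limma adjusted p = 0.0531). Myc, Rps6kb1, Mlst8, Mycl, Mxi1 and Larp1 were named after their values were seen. Of 13 p53 targets, Phlda3 (0.76 ± 0.12 (SE), 0.00835) and Pmaip1 (0.64 ± 0.10 (SE), 0.00678) rose, against 7.91% of all tested genes, and the median was 0.12.

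**Figure D5:**
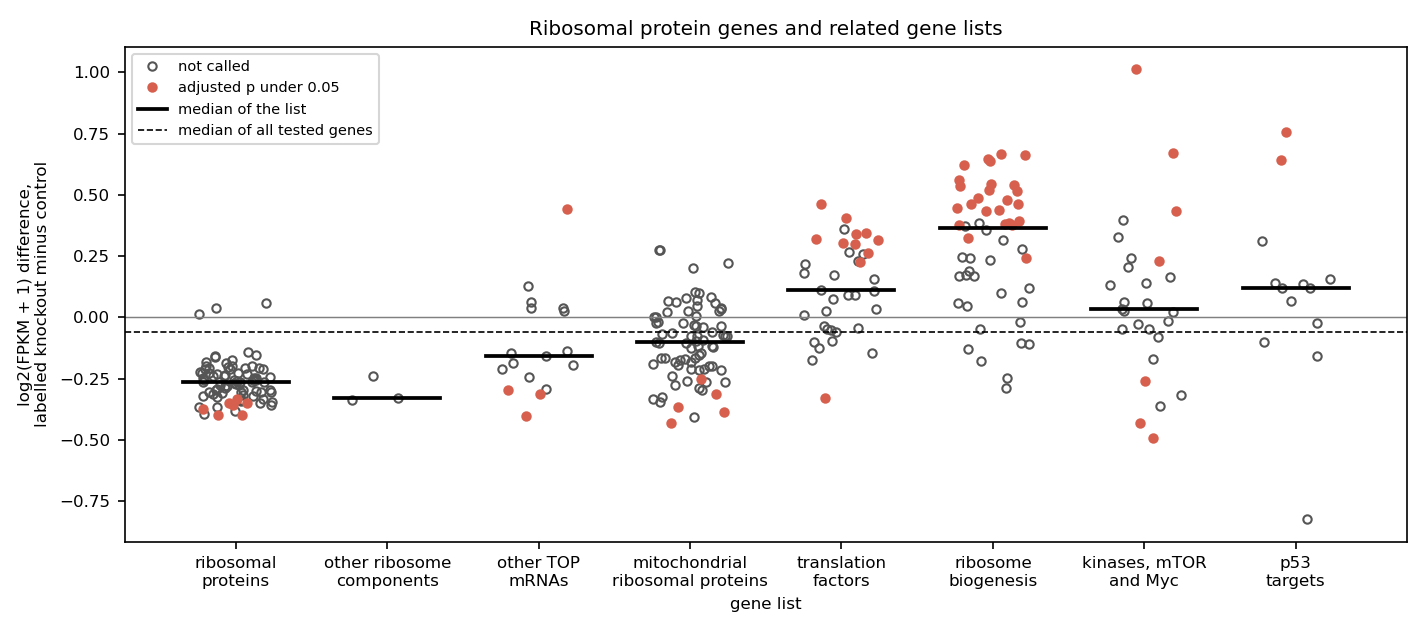
Difference in log2(FPKM + 1), labelled knockout minus control, of each tested gene (points) of the ribosomal proteins and 7 related lists, with called genes filled and a black bar at each list's median. The ribosomal proteins cluster around -0.26 and the biogenesis factors around 0.36, against a median of -0.06 for all tested genes (dashed).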

How the data were processed

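The authors deposited 1 table of FPKM, with a column per library, per the file headers. CASAVA and Cufflinks were used with GRCm38, per the submitters' processing notes. Aligner, annotation, strandedness and RNA selection: not given in the sources used here. RNA was extracted with an RNeasy column kit, per the labels' protocols. Symbols, positions and lengths came from GENCODE M21 on GRCm38 (49195 of 49452 identifiers matched), and the highest-mean row was kept for each symbol.

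FPKM are not counts, so no count model was used and no counting error was derived. Values were analysed as log2(FPKM + 1), a scale that understates changes of low genes. Genes whose mean reached 1 FPKM in at least one group (13500) were fitted with limma 3.58.1 in R 4.3.3, with an intensity trend, no covariates and 3 libraries per group. P-values are two-sided, with Benjamini-Hochberg adjustment across the tested genes and a threshold of 0.05, and "rose" and "fell" mark genes past it. The fit was checked on simulated data with independent noise for each gene. The simulation held no shift shared within a library and no trend with length, so it cannot speak to either. For the length adjustment, a smooth of each library's deviations from the gene means on log10 exonic length was subtracted.

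The members, lists and tests were chosen with earlier results of these data known. Named members were those called with groups that do not overlap, the 4 most and 4 least abundant tested, the 4 lowest and 4 highest differences after median scaling, those with set known roles, and paralogs with their partners. Of each related list, the 2 genes with the smallest p were named. Alternatives covered the pseudocount, filter, scaling, length, variance model, threshold and left-out libraries. A few single-gene results are not reported here.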

Additional observations from a re-analysis of the deposited data

How the results depend on the processing

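The 7 members called lower became 1 with no filter on low values and 18 with a filter at a mean of 5 FPKM. They became 2 with median scaling, 18 with upper quartile scaling, 17 with quantile normalization and 27 with scaling to the sum of other genes. The count was 3 with the length adjustment and 4 with it and without control 264. It was 18 without the intensity trend, 12 with robust empirical Bayes and 64 with array weights. The share of all tested genes called lower ran from 5.58% with no filter to 29.2% with array weights among these settings at 0.05. At a threshold of 0.10, 35 members were called lower, and the share of all tested genes at that threshold is not given here. Members were called lower more often than all tested genes with array weights (78% against 29.2%) and scaling to the sum of other genes (32.9% against 16.8%). The same held with upper quartile scaling (22% against 14.5%) and quantile normalization (20.7% against 12.3%). It also held with the filter at 5 FPKM (22% against 17%) and without the trend (22% against 15.6%). Under the other settings named so far at 0.05 members were called less often. With a library left out, the count ran from 1 to 30. It was highest without control 264 (36.6% of members, against 16.8% of all tested genes). With any other library left out, members were called lower less often than all tested genes. After median scaling, the 2 genes called lower became 0 to 16 with a library left out, and the 0 called higher became 0 to 2. On the deposited scale 0 members were called higher, and 2 with the length adjustment without control 264. The median member difference of -0.26 became -0.13 with the length adjustment, -0.13 with length taken from coding transcripts and -0.0946 with the length adjustment without control 264. Over all genes, the 3169 calls became 6272 with array weights and 1462 to 3784 with a library left out. The share of all calls that were higher was 33.7% as deposited, 44.8% with median scaling, 47.9% with quantile normalization, 51.9% with the length adjustment and 50.7% with transcript length. Among the named members, the sign turned for Rpl14 with the length adjustment (0.0247, or 0.0564 without control 264), and for Rpl38 (0.0136) and Rps27l (0.0309) with the adjustment without control 264, under which 10 of the 76 abundant genes were higher in all. With a library left out, Rpl36al ran from -0.0376 to 0.162, Rpl7l1 from -0.0499 to 0.0976 and Rps19bp1 from -0.0313 to 0.184. The causes were not tested. The length adjustments by transcript or without control 264, and the scaling to the median member, were added after seeing the data. No paired analysis was possible because the library number differs for every library. The files used here give no depth per library, so counting error was not weighed.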
